A study of Mus musculus with 6 samples.

Results

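Heat shock proteins and DnaJ co-chaperones were described in a mouse glioblastoma stem cell line with and without knockdown of Ggct, the gene of gamma-glutamylcyclotransferase. Members were taken by name only: every array probe whose transcript carries a symbol starting with Hspa, Hspb, Hspd, Hspe, Hsph or Hsp90, or with Dnaja, Dnajb or Dnajc and a digit. This gave 127 probes for 73 genes, of 22907 genes named on the array. Of these 73 genes, 38 were placed in the cytosol or nucleus, 15 in the endoplasmic reticulum (ER), 9 in mitochondria and 11 elsewhere. The prefix also took in Hspbp1, Hspbap1 and Hspb11, which are neither chaperones nor J-domain proteins.

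The cells came from brain tumours induced in mice with a transposon given as SB in the labels, and grew as neurospheres with the growth factors EGF and bFGF in medium without serum. Both groups had been transduced with lentivirus and carried a hairpin: a non-target one in the 3 control arrays and one against Ggct in the 3 knockdown arrays. All knockdown titles name 1 hairpin, mGGCTsh3, and 1 cell line was used, so effects of that hairpin and of Ggct loss cannot be told apart. Each array holds Cy3-labelled cRNA of 1 sample. Arrays with the same number share the date that opens their titles and form pairs 1, 2 and 3.

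Heat shock proteins bind unfolded polypeptides and keep them from aggregating. Hsp70 proteins (Hspa) fold clients in cycles of ATP hydrolysis, J-domain proteins (Dnaja, Dnajb, Dnajc) bring them clients and start the hydrolysis, Hsp90 matures kinases and receptors, and small heat shock proteins (Hspb) hold unfolded proteins without ATP. The cytosol, the ER and the mitochondrial matrix each have their own set. Some of the cytosolic genes are induced by heat shock factor 1, and some of the ER genes by the unfolded protein response. Many tumour cells depend on these chaperones.

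Ggct itself fell, to 12.7% of control (log2 fold change -2.97 ± 0.20 SE, limma adjusted p = 0.00314). Markers of neural and glioma stem cells were well above background on all 6 arrays for 8 of 10 genes, among them Sox2, Nes and Prom1, whereas Olig2 and Pax6 were so on no array. Of 8 microglia and macrophage markers, Cd68, Csf1r, Itgam and Tmem119 were above background on all 6 arrays. The pan-leukocyte marker Ptprc and the microglial markers Aif1, Cx3cr1 and P2ry12 were well above background on no array. Of 5 oligodendrocyte markers 3 were above it on all arrays, with a summed level (log2) of -1.29 to -1.02 in control and -0.93 to -0.58 in knockdown, while Sox10 was so on none, and Mbp was higher in the knockdown. Fibroblast and pericyte markers (3 of 4 tested, Lum on no array) summed to -0.83 to -0.13 in control and -0.11 to 0.11 in knockdown. Microglia and macrophage markers (4 of 8 tested) summed to 3.61 to 4.20 in control and 3.72 to 3.97 in knockdown, with Tmem119 higher in the knockdown. The neuron markers Snap25, Syt1 and Tubb3 were above background on all arrays and Rbfox3 on none. They summed to 2.95 to 3.60 in control and 2.875 to 3.21 in knockdown. The endothelial markers Pecam1 and Cdh5 were above it on all arrays, and Cldn5 and Kdr on none. They summed to -2.71 to -2.125 in control and -2.56 to -2.36 in knockdown. The part of these cells in the results below was not tested, and in bulk RNA fewer cells of a type and less RNA per cell cannot be told apart. On the first principal component of all tested genes, knockdown array 1 scored 46.6. The remaining knockdown arrays scored 9.13 and 15.4, and the controls -30.5 to -15.0.

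Of the 73 member genes, 61 had a probe well above background on at least 3 arrays and were tested, 59 of them on all 6 arrays. The other 12 were not tested: Dnajb13, Dnajb3, Dnajb7, Dnajb8, Dnajc5b, Dnajc5g, Dnajc6, Hspa1a, Hspa1l, Hspb1, Hspb3 and Hspb8. Of those 12, 9 were above background on no array, which includes the small heat shock proteins Hspb1 (Hsp27) and Hspb8. All 15 ER members and all 9 mitochondrial members were tested, against 29 of the 38 cytosolic ones. Values are normalised log2 signals, that is, log2 intensity relative to the 75th percentile of its array, and a change is knockdown minus control.

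In the knockdown, 3 of the 61 tested members rose and 1 fell at an adjusted p under 0.05 (limma, Benjamini-Hochberg over all 14151 genes tested). Hspb7, Hspb2 and Dnajc12 rose, and Hspbap1 fell. These 4 are 6.56% of the tested members, beside 7.41% of all genes tested, so the share of calls was near the background. Hspb7 was tested only because its knockdown arrays were above background. Among the 59 members above background on all 6 arrays, 2 rose and 1 fell (5.08%). Of all genes, 4.57% passed as higher and 2.84% as lower. With the pairs as a block, 2 members passed, Hspb2 and Hspb7, beside 3.94% of all genes. An unadjusted p under 0.05 was reached by 8 members, or 13.1%, beside 24.8% of all genes. The median log2 fold change was -0.02 over the members, with quartiles of -0.15 and 0.16, and 0.02 over all genes.

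The 3 compartments had medians close to 0. The median log2 fold change was -0.02 over the 29 cytosolic members, of which 3 rose and 0 fell, -0.004 over the 15 ER members and -0.02 over the 9 mitochondrial members, of which 0 passed in either direction. The cytosolic rises include Hspb7, tested only because its knockdown arrays were above background. Of all genes, 7.41% passed. An unadjusted p under 0.05 (limma) was reached by 3 cytosolic, 2 ER and 1 mitochondrial members, beside 24.8% of all genes. ER members ranged from -0.36 to 0.44 and mitochondrial members from -0.35 to 0.25, while cytosolic members other than Hspb7, which has only a bound, ran from -0.69 to 1.22. The 8 tested members placed elsewhere had a median of -0.07, and 1 of them fell. Differences between compartments were not tested.

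**Figure D1:**
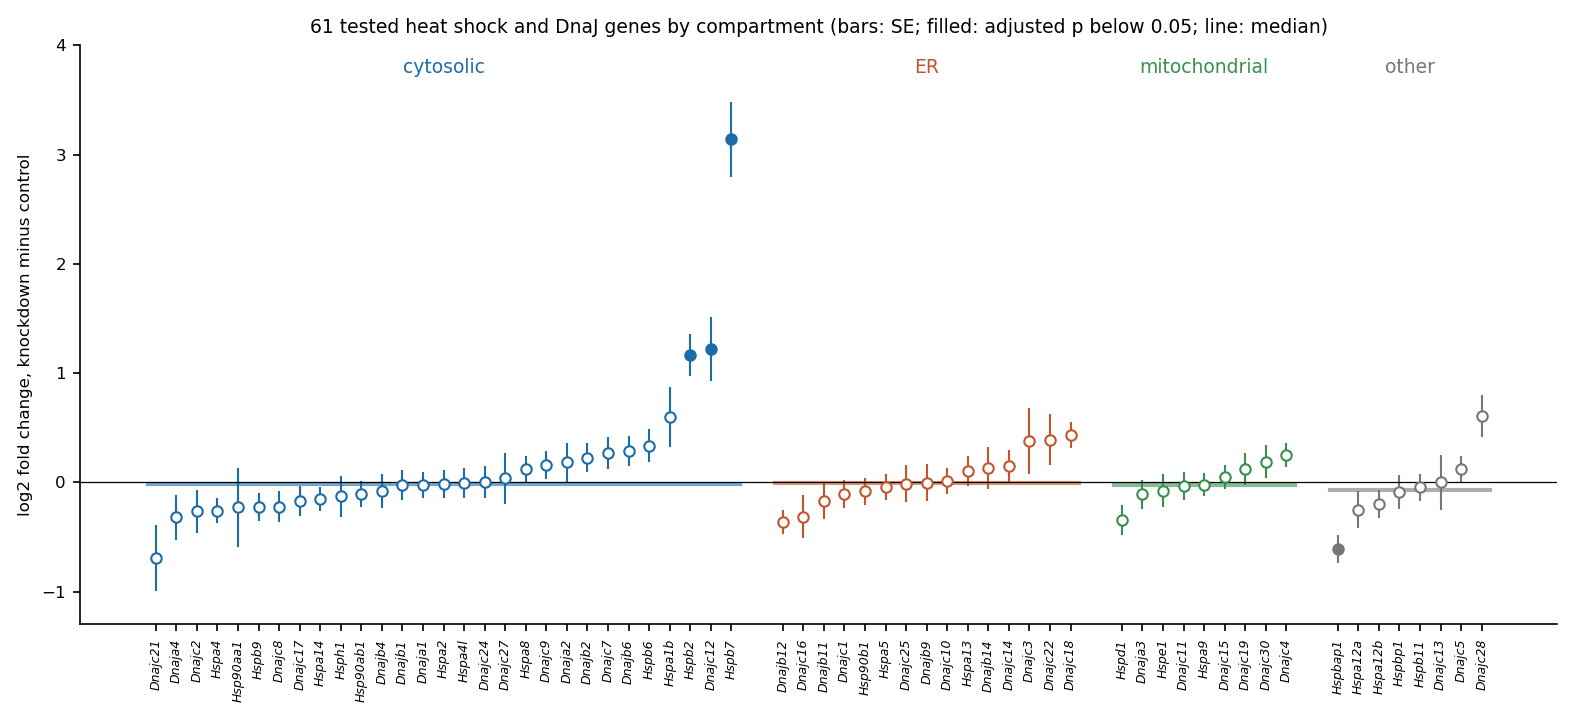
Log2 fold change (knockdown minus control, vertical axis) of the 61 tested members, ordered within the cytosolic, ER, mitochondrial and other groups (horizontal axis). Bars are standard errors, filled points passed an adjusted p of 0.05 and coloured lines are group medians. Most points lie near 0, and the filled points are Hspb7, Hspb2, Dnajc12 and Hspbap1. The point of Hspb7 is a fit against control signals not above background.

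The medians varied more between pairs than between these compartments. The cytosolic median was 0.19, -0.04 and -0.09 in pairs 1, 2 and 3. In the ER it was 0.02, -0.12 and 0.07, and in mitochondria 0.05, -0.01 and -0.01. Over all genes the pairs gave 0.09, 0.003 and -0.03. Of the 61 members, 29 (47.5%) changed in the same direction in all 3 pairs, 15 of them upward and 14 downward, beside 48.7% of all genes. The arrays of the groups did not overlap for 16 members (26.2%), beside 32.4% of all genes. Knockdown was higher in 9 of them (14.8%, beside 17.8%) and lower in 7 (11.5%, beside 14.6%). A change of at least 2-fold was fitted for 3 members (4.92%), beside 3.23% of all genes. Hspb7, tested only because its knockdown arrays were above background, is in each of these counts except those of lower members. Among the 59 members above background on all 6 arrays, 28 changed in the same direction in all 3 pairs. Of those 59, 8 were higher without overlap and 2 changed at least 2-fold.

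**Figure D2:**
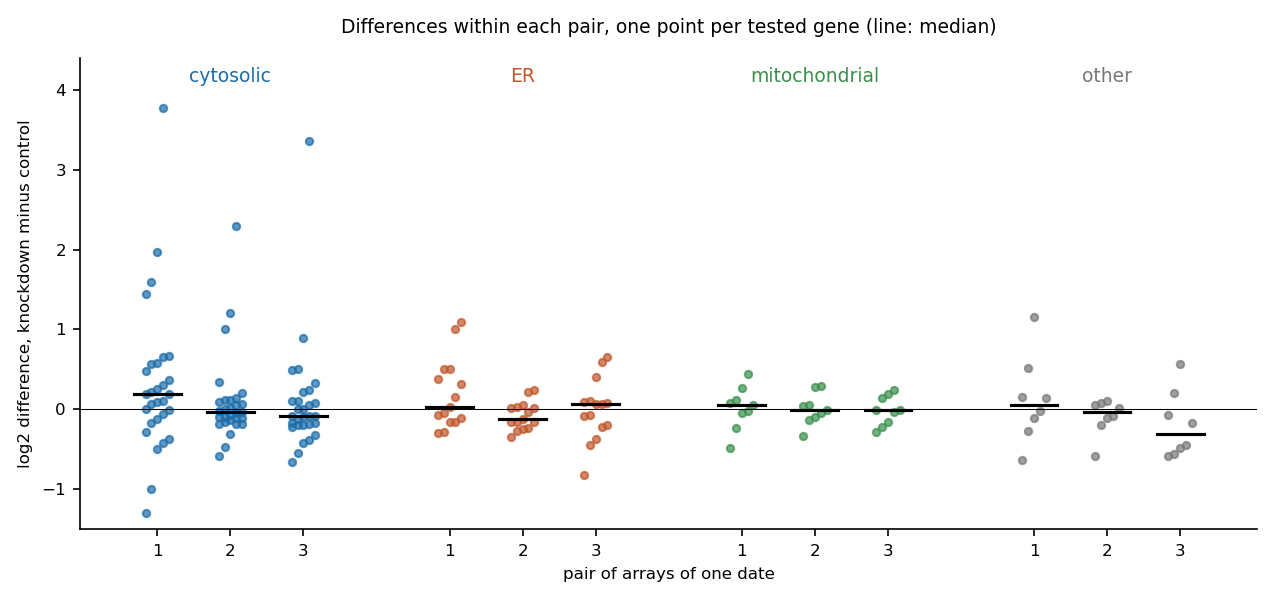
Log2 difference between the knockdown and the control array of each pair (vertical axis) for pairs 1, 2 and 3 (horizontal axis), with 1 point per tested member in each compartment and a black line at the median. The cytosolic points spread widest in pair 1, where the median was 0.19, and mitochondrial medians stayed within 0.06 of 0. The highest point of each cytosolic column is Hspb7, whose control arrays were not above background.

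By family, 7 tested symbols start with Hspb, and 3 of them are the prefix matches Hspbap1, Hspbp1 and Hspb11. Among these 7, the small heat shock proteins Hspb7 and Hspb2 rose, and Hspbap1, which is none, fell. Hspb7 was tested only because its knockdown arrays were above background. The family counts are to be read beside 7.41% of all genes that passed. Of the 25 tested Dnajc genes 1 rose and 0 fell, with a median of 0.05. None of the 11 Hspa, 3 Hsp90, 4 Dnaja and 8 Dnajb genes passed, nor did Hspd1, Hspe1 or Hsph1. Of those genes only Dnajb12 and Hspd1 had an unadjusted p under 0.05 (limma), beside 24.8% of all genes. Family medians were -0.02 for Hspa, -0.11 for Hsp90, -0.07 for Dnaja and -0.01 for Dnajb. With the mean of a gene's probes, Dnajb11 passed as higher. In the fit over all probes, 3 of the 110 member probes tested passed (of Hspb7, Hspb2 and Dnajb11), beside 1.75% of 31804 probes.

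Hspb7, a small heat shock protein best known from heart and skeletal muscle, was above background on the knockdown arrays only. Its signal was -7.26, -6.84 and -7.85 on control arrays 1, 2 and 3, none well above background, and -3.48, -4.54 and -4.49 on knockdown arrays 1, 2 and 3. The groups did not overlap. The fitted log2 change was 3.14 ± 0.34 SE (limma adjusted p = 0.00923), but the control values hold only a bound, and the gene passed the filter through its knockdown arrays alone, so this p is conditioned on the outcome. With a filter of 6 arrays it was not tested. Against the lowest signal well above background on each control array, the knockdown mean was 2.22-fold higher (1.15 on the log2 scale). This bound was taken under the main processing only. A further Hspb7 probe was above background on no array. With normexp background correction the change was 0.55 and did not pass (adjusted p = 0.0612), and leaving out control 1 or knockdown 3 also ended the call (adjusted p = 0.0583 and 0.0516).

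As the member above background in the knockdown only, its upstream sequence is shown: the 250 bases before the start of Hspb7 on the plus strand (chr4:141420529-141420778, RefSeq, GRCm38.p6). None of the motifs searched below matched in this window, so no letter is in capitals.
Hspb7: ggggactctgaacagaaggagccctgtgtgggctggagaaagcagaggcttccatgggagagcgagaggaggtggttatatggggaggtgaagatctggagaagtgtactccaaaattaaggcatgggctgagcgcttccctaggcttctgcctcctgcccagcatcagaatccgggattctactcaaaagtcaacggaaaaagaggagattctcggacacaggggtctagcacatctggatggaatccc

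Hspb2, a small heat shock protein that binds the myotonic dystrophy kinase in muscle, rose 2.25-fold. Its signal was -2.75, -2.82 and -2.47 on control arrays 1 to 3 and -1.15, -1.81 and -1.57 on knockdown arrays 1 to 3. Every knockdown array lay above every control array, with knockdown 1 highest. The log2 change was 1.17 ± 0.19 SE (limma adjusted p = 0.0176), and the pairs differed by 1.59, 1.01 and 0.90. It did not pass without control 1, control 2 or knockdown 3 (adjusted p = 0.0801, 0.0755 and 0.0676). With normexp background correction the change was smaller, 0.79, and without knockdown 1 it was 0.99. Hspb2 still passed in both fits. Cryab, the gene of alpha B-crystallin and the neighbour of Hspb2 in the genome, did not pass (-0.21 ± 0.15 SE, limma adjusted p = 0.430).

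Dnajc12 encodes a cytosolic J-domain protein that works with Hsp70 in folding the aromatic amino acid hydroxylases, and it rose 2.34-fold. Its signal was -0.79, -0.85 and 0.04 on control arrays 1 to 3 and 1.18, 0.36 and 0.54 on knockdown arrays 1 to 3. The groups did not overlap, but control 3 lay close to knockdown 2. The log2 change was 1.22 ± 0.29 SE (limma adjusted p = 0.0488), and the pairs differed by 1.97, 1.21 and 0.50. The call stood at the threshold. It was lost with the pairs as a block (adjusted p = 0.0826), with quantile normalisation (0.0599), with no filter (0.102), with the mean of a gene's probes (0.0507) and in 5 of the 6 fits that left out an array (up to 0.165), all but the one without control 3.

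Hspbap1, whose product binds the small heat shock protein Hspb1 and is itself no chaperone, fell to 65.7% of control. Its signal was 1.09, 1.31 and 1.24 on control arrays 1 to 3 and 0.45, 0.72 and 0.66 on knockdown arrays 1 to 3. The groups did not overlap, and the pairs differed by nearly the same amount, -0.64, -0.59 and -0.59. The log2 change was -0.61 ± 0.13 SE (limma adjusted p = 0.0354). With the pairs as a block the adjusted p was 0.0585, with no filter 0.0960, and without any 1 of the 6 arrays it ran from 0.0592 to 0.141.

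**Figure D3:**
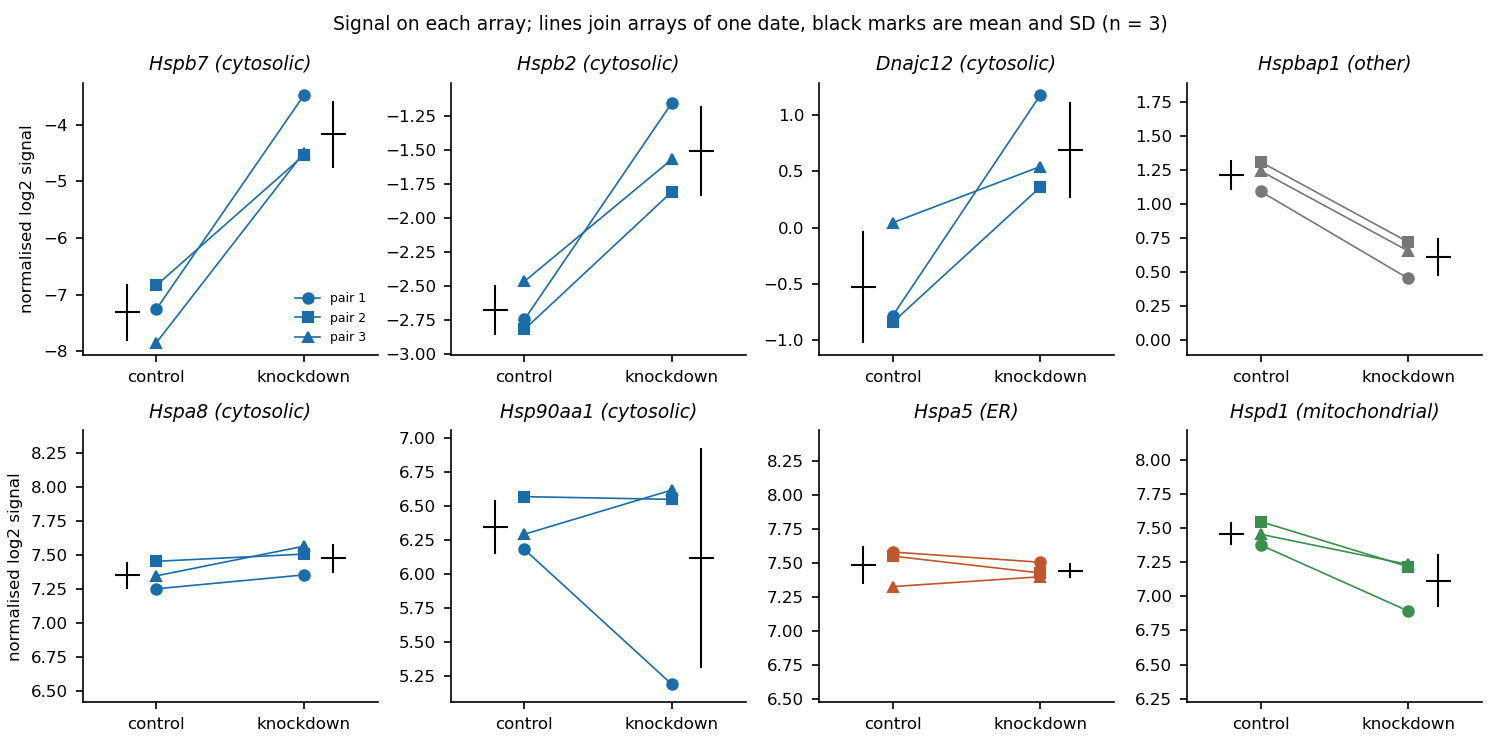
Normalised log2 signal (vertical axis, its own range in each panel) on the control and knockdown arrays for 8 members. Symbols mark the pair, lines join arrays of one date, and black marks are the mean and SD (n = 3). The upper row holds the 4 members that passed, whose groups do not overlap. Among them, Hspb7 had control signals not above background and was tested only because of its knockdown arrays. In the lower row Hsp90aa1 is low on knockdown array 1 only, and Hspd1 is lower on every knockdown array without passing.

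The remaining small heat shock proteins did not pass. Hspb6 (Hsp20) was at 1.57, 1.58 and 1.56 on the control arrays and 2.16, 1.92 and 1.64 on the knockdown arrays. All 3 knockdown arrays lay above the controls, and the change was 0.34 ± 0.15 SE (limma adjusted p = 0.219), with 0.55 at a further probe. Hspb9 arrays ran from -4.00 to -3.70 in control and from -4.11 to -3.95 in knockdown, with overlap and a change of -0.22 ± 0.13 SE (limma adjusted p = 0.336).

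The abundant cytosolic Hsp70 and Hsp90 genes did not pass. Hspa8, the constitutive cytosolic Hsp70, was at 7.25, 7.45 and 7.35 on control arrays 1 to 3 and 7.35, 7.51 and 7.56 on knockdown arrays 1 to 3. The groups overlapped, and the change was 0.12 ± 0.12 SE (limma adjusted p = 0.587), with 0.12 to 0.23 over its 4 probes. Hsp90ab1, the constitutive cytosolic Hsp90, changed by -0.11 ± 0.12 SE (adjusted p = 0.630, limma).

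Hsp90aa1, the stress-inducible cytosolic Hsp90, was at 6.18, 6.57 and 6.29 on the control arrays and 5.19, 6.55 and 6.62 on the knockdown arrays. Knockdown 1 was low and the other knockdown arrays lay near or above the controls. A further probe gave the same order, 6.11, 6.48 and 6.09 in control and 4.95, 6.50 and 6.55 in knockdown. The change was -0.23 ± 0.36 SE (limma adjusted p = 0.758) and turned to 0.24 without knockdown 1.

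The inducible Hsp70 genes Hspa1a and Hspa1b encode nearly the same protein, and whether their probes tell them apart was not tested. Hspa1b was at -3.15, -2.88 and -2.62 on the control arrays and -1.70, -2.76 and -2.38 on the knockdown arrays. Only knockdown 1 and 3 exceeded every control, and the change of 0.60 ± 0.27 SE did not pass (limma adjusted p = 0.225). Without knockdown 1 it was 0.31. The Hspa1a probe read -6.99, -5.64 and -6.91 in control, none well above background, and -5.03, -4.91 and -6.54 in knockdown, of which 2 were well above it.

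Hspa4 and Hsph1 belong to the Hsp110 family, which exchanges nucleotide on Hsp70. Hspa4 was lower on all knockdown arrays (6.46, 6.60 and 6.59) than on all controls (6.75, 6.90 and 6.78), with pair differences of -0.28, -0.30 and -0.20. The change of -0.26 ± 0.11 SE did not pass (limma adjusted p = 0.208), and its further probe gave -0.20. Hsph1 changed by -0.13 ± 0.19 SE (limma adjusted p = 0.735), with pairs at 0.31, -0.04 and -0.66.

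Among the cytosolic J-domain proteins, Dnaja1 and Dnajb1, the main partners of cytosolic Hsp70, changed by -0.02 ± 0.12 and -0.02 ± 0.14 SE (limma adjusted p = 0.941 and 0.947). Further Dnaja1 probes gave 0.30 and 0.80, so its probes differed. Dnajc21, which takes part in making the large ribosomal subunit, had the lowest change of the tested members, -0.69 ± 0.30 SE, and did not pass (limma adjusted p = 0.205). Its signal was 2.94, 3.25 and 3.10 in control and 1.64, 2.78 and 2.78 in knockdown. All knockdown arrays lay below the controls, knockdown 1 farthest, and without that array the change was -0.31. Its 3 probes gave -0.69, -0.45 and -0.37.

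In the ER, the genes induced by the unfolded protein response did not pass. Hspa5 (BiP), the ER Hsp70 and sensor of unfolded proteins, was at 7.58, 7.55 and 7.32 on control arrays 1 to 3 and 7.50, 7.42 and 7.40 on knockdown arrays 1 to 3. The groups overlapped, and the change was -0.04 ± 0.12 SE (limma adjusted p = 0.878). Its 95% interval reached from a fall of 20.2% to a rise of 18.1%. Hsp90b1 (Grp94), the ER Hsp90, changed by -0.08 ± 0.13 SE (limma adjusted p = 0.748), and its interval reached from a fall of 22.9% to a rise of 15.7%.

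Dnajb9 and Dnajc3 are ER J-domain partners of BiP, and the product of Dnajc3 also restrains the kinase PERK. Dnajb9 changed by -0.004 ± 0.17 SE (limma adjusted p = 0.994). Dnajc3 was at 0.94, 0.67 and 1.14 in control and 2.03, 0.91 and 0.94 in knockdown. Knockdown 1 was high, the others lay among the controls, and the change was 0.38 ± 0.30 SE (limma adjusted p = 0.499) and 0.01 without that array.

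The promoters of Hspa5, Hsp90b1 and Dnajc3 are shown because they hold the ER stress response element, the site through which the unfolded protein response induces ER chaperones. It was searched as CCAAT, 9 bases of any kind and CCACG on both strands in the 250 bases before the start, over the 59 of 73 members in the RefSeq promoter table (GRCm38.p6). Matches are in capitals. The windows are chr2:34771840-34772089 (plus strand) for Hspa5, chr10:86705445-86705694 (minus strand) for Hsp90b1 and chr14:118937682-118937931 (plus strand) for Dnajc3, each printed 5′ to 3′.
Hspa5: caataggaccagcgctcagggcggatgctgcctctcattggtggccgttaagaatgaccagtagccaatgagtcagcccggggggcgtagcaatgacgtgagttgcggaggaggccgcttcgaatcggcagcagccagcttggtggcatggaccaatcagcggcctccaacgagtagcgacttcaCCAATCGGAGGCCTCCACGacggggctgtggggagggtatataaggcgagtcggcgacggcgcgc
Hsp90b1: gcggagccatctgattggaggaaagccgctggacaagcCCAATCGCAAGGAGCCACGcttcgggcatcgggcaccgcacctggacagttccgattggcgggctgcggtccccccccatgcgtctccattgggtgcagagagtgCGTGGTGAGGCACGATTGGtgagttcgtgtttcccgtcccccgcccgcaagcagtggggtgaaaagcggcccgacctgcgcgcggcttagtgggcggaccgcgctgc
Dnajc3: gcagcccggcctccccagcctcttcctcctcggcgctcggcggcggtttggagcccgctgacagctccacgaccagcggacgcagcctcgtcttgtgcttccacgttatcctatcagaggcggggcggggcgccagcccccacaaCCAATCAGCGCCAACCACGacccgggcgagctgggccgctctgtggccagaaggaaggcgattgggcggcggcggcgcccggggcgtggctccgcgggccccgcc

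These 3 were the only matched members with the element, 3 of the 12 ER members and 0 of the 32 cytosolic and 6 mitochondrial ones in the table. Over all 32851 promoters 37, or 0.113%, held it, and 0.13% of genes had a promoter with it. Hsp90b1 had 2 matches, 1 on each strand, and the others 1. None of these 3 genes passed in the knockdown.

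The ER membrane J-domain proteins Dnajb12 and Dnajc18 stood apart from the controls in opposite directions without passing. Dnajb12, which acts in ER-associated degradation, was at 1.996, 2.063 and 2.192 in control and 1.696, 1.714 and 1.751 in knockdown. All knockdown arrays were lower, by -0.36 ± 0.11 SE (limma adjusted p = 0.0966), and a further probe gave -0.31. Dnajc18 was at 1.95, 2.12 and 1.88 in control and 2.46, 2.34 and 2.48 in knockdown. All knockdown arrays were higher, by 0.44 ± 0.12 SE (limma adjusted p = 0.0728), with 0.14 at a further probe.

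Dnajb11 (ERdj3), a soluble BiP partner, gave different answers by probe. The probe with the highest signal changed by -0.17 ± 0.16 SE (limma adjusted p = 0.577), and a second probe of the same transcript by -0.15. The remaining probe, assigned to another transcript record of the gene, read -4.61, -4.12 and -4.59 on control arrays 1 to 3 and -1.77, -2.41 and -2.19 on knockdown arrays 1 to 3. At that probe the groups were far apart, with a change of 2.32 (adjusted p = 0.022 in the limma fit over all probes). Of the 30 members with more than 1 tested probe, 21 had all probes on one side of 0. The range between probes was 0.14 at the median and 2.49 in Dnajb11, and in no other member did it exceed 0.82.

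**Figure D4:**
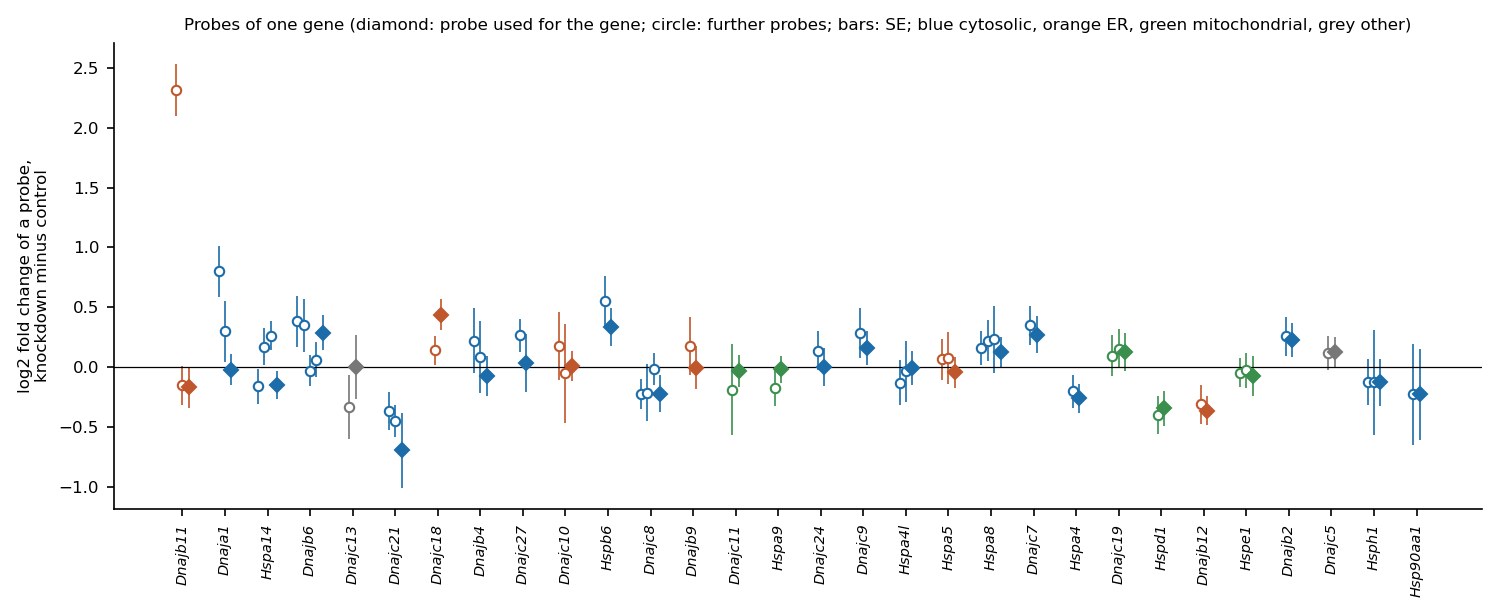
Log2 fold change (vertical axis) of every tested probe of the 30 members with more than 1, from the fit over all probes. Diamonds are the probe used for the gene, circles the further probes and bars the SE, with members ordered by the range between their probes. One Dnajb11 probe at 2.32 stands apart from its other probes, which lie below 0.

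In mitochondria, the matrix Hsp70 and its J-domain partners did not pass. Hspa9 (mortalin), the Hsp70 that pulls proteins into the matrix, was at 6.05, 5.99 and 6.05 in control and 6.01, 5.98 and 6.04 in knockdown. The groups overlapped, and the change was -0.02 ± 0.11 SE (limma adjusted p = 0.936). Dnajc19, its J-domain partner at the import channel, changed by 0.12 ± 0.15 SE, and Dnaja3, its partner in the matrix, by -0.11 ± 0.13 SE (limma adjusted p = 0.665 and 0.668).

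Hspd1 and Hspe1 encode the Hsp60 and Hsp10 parts of the matrix chaperonin from neighbouring genes read in opposite directions. Hspd1 was at 7.38, 7.55 and 7.46 in control and 6.89, 7.22 and 7.24 in knockdown. All knockdown arrays lay below the controls, and a further probe gave -0.40, but the change of -0.35 ± 0.14 SE did not pass (limma adjusted p = 0.169). Hspe1 was at 6.805, 7.081 and 6.861 in control and 6.576, 6.951 and 6.998 in knockdown, with overlapping groups and a change of -0.07 ± 0.15 SE (limma adjusted p = 0.825). Whether the changes of the 2 genes differ was not tested. Dnajc4, also mitochondrial, was higher on every knockdown array by 0.25 ± 0.11 SE and did not pass (limma adjusted p = 0.213).

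The shared promoter of Hspd1 and Hspe1 holds a heat shock element, the site of heat shock factors, and so does that of Dnajb6, a cytosolic J-domain protein that keeps polyglutamine proteins soluble. The element was searched as GAA, TTC and GAA with 2 bases of any kind in each gap, on both strands, in the 250 bases before the start (RefSeq, GRCm38.p6). The stretch at chr1:55088059-55088076 lies 89 to 72 bases before the start of Hspe1 on the plus strand and 144 to 127 bases before that of Hspd1 on the minus strand, and holds 2 overlapping matches. That of Dnajb6 lies at chr5:29735852-29735864 on the plus strand. The stretches are printed whole in capitals.
Hspe1: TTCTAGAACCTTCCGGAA
Hspd1: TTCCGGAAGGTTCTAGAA
Dnajb6: GAATCTTCCGGAA

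The element was found in 3 of the 59 matched members (5.08%) in 153 of 32851 promoters (0.466%) and in 0.514% of genes. A shorter form that is part of it, GAANNTTC, was in 11 of the 59 (18.6%), 9 of them cytosolic, 2 mitochondrial and 0 in the ER, in 6.69% of all promoters and in 7.73% of genes. Hspa1a, Hspa1b, Hspb1 and Dnaja1 were among these 11. Dnajb6 was higher on all knockdown arrays (4.15, 3.90 and 3.93) than on the controls (3.51, 3.79 and 3.83) and did not pass (0.29 ± 0.14 SE, limma adjusted p = 0.255). Its 5 tested probes ran from -0.03 to 0.38.

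Members placed outside these compartments included Dnajc28, at -3.35, -2.91 and -3.12 in control and -2.19, -2.81 and -2.55 in knockdown. All knockdown arrays were higher, knockdown 2 only just, and the change of 0.61 ± 0.19 SE did not pass (limma adjusted p = 0.0990). With normexp background correction it was 0.30, and without knockdown 1 it was 0.44. Hspa12b, a distant Hsp70 relative, was lower on all knockdown arrays by -0.20 ± 0.13 SE (limma adjusted p = 0.404). Dnajc13, which acts on endosomes, gave 0.001 and Dnajc5, the cysteine string protein of secretory vesicles, 0.12.

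Other genes of protein folding were followed in 4 lists, to be read beside 7.41% of all genes that passed and 24.8% with an unadjusted p under 0.05. Of 28 tested cytosolic co-chaperones and heat shock factors, 0 passed in either direction and 5 had an unadjusted p under 0.05 (limma), with a median of -0.02. Serpinh1, an ER chaperone of collagen, was counted in this list and not in the ER one. It was higher on every knockdown array without passing (0.53 ± 0.14 SE, limma adjusted p = 0.0684). Hsf1, the gene of heat shock factor 1, was at 2.84, 2.97 and 2.99 in control and 2.63, 2.70 and 2.51 in knockdown. It was lower on every knockdown array without passing (-0.32 ± 0.12 SE, limma adjusted p = 0.141). Bag2, an inhibitor of Hsp70-linked ubiquitination, gave -0.61 (adjusted p = 0.0526, limma) and passed under 3 alternative settings. Of 16 genes of the cytosolic chaperonin TRiC and prefoldin, 0 passed (also 0 at an unadjusted p under 0.05, limma), with a median of 0.02.

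Of 36 tested genes of ER folding and the unfolded protein response, 0 rose and 1 fell, and 1 had an unadjusted p under 0.05 (limma), with a median of 0.09. Ero1a, the oxidase that renews disulfide bonds in the ER, was the one that fell. Its signal was 5.80, 5.40 and 5.45 in control and 4.72, 4.70 and 5.10 in knockdown, 1.63-fold lower (-0.71 ± 0.17 SE, limma adjusted p = 0.0478; 0.0910 with the pairs as a block). The unfolded protein response genes Xbp1, Ddit3, Herpud1 and Atf4 gave 0.13, 0.27, 0.19 and -0.21, and none passed. Of 24 genes of mitochondrial folding and proteolysis, 0 rose and 1 fell, and 3 had an unadjusted p under 0.05 (limma), with a median of -0.01. Lonp1, the main protease of the matrix, was at 5.59, 5.48 and 5.41 in control and 4.85, 5.08 and 4.92 in knockdown, 1.46-fold lower (-0.55 ± 0.12 SE, limma adjusted p = 0.0398; 0.0840 with the block). Each of these calls was lost when any 1 of the 6 arrays was left out.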

How the data were processed

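RNA of 6 samples was measured on 1-colour Agilent arrays. Spot intensity values on a linear scale had been background-corrected by Agilent Feature Extraction 11.0.1.1, per the file headers. The value table the authors deposited holds log2 values, equal to log2 of that signal minus 1 constant per array within 0.01. All arrays shared a slide and scan date. Outlier spots were dropped, spots of a probe averaged as log2, and each array's 75th percentile subtracted. Of 56605 probes, 54.5% to 56.8% per array were well above background, 0 were saturated, and 58.3% were named through RefSeq accessions (GRCm38.p6), used for names and promoter sequences, while the array design names build mm9. Genes needed a probe well above background on at least 3 arrays, and the probe with the highest mean stood for the gene. Precision is limited by having 3 arrays per group.

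The groups were compared with limma 3.58.1 (R 4.3.3), two-sided, with Benjamini-Hochberg adjustment over 14151 genes and a threshold of 0.05. The fit was run on simulated data with independent normal noise for each gene. Those data held no array-wide deviation and no pairing, so they cannot show how such features affect the calls here. Python 3.11.15 and pandas 2.3.3 read the files. The titles' dates mark a shared day, so the pairs served as a block in an alternative fit. Deviations of paired arrays from their group means correlated at -0.03, 0.55 and -0.20. Whether a group's samples were independent cultures is not stated, and the p-values then reflect only spread among the 6 arrays, which may be technical. The members and lists were chosen with earlier results of these data known.

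Named genes were every member that passed, 21 members set by role, the 3 largest rises and falls that did not pass, members above background in 1 group only, members whose probes disagreed by over 1 log2 unit, up to 4 genes per list that passed, and Ggct. Other genes named were picked after their values were seen. Alternatives changed the scaling (75th percentile over bright probes, quantile), the background correction (normexp with offset 50, on median signals because the files hold no mean signal), the filter, the probe of a gene, the value source and the block, left out each array, and fitted every probe. Protein sequences were not used here. Promoter windows and distances to gene starts are RefSeq's, on GRCm38.p6.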

Additional observations from a re-analysis of the deposited data

Results flagged for a closer look

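A Dnajb11 probe that did not stand for the gene, since another had a higher signal, changed by 2.32 on the log2 scale, and its knockdown arrays (-1.77, -2.41 and -2.19) all lay above its controls (-4.61, -4.12 and -4.59). The other Dnajb11 probes changed by -0.17 and -0.15. The cause was not tested.

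Hspa1a entered no test, but its probe was well above background on 2 knockdown arrays and on 0 control arrays. Its highest control signal was -5.64, and the knockdown signals were -5.03, -4.91 and -6.54.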

How the results depend on the processing

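The count of all genes that passed, 1048, was 357 with no filter, where 22907 genes were tested, 558 with the replicate block and 14 to 840 when 1 array was left out. Of the members, 4 passed, and 2 did so with no filter or with the replicate block (Hspb2 and Hspb7 in both). Leaving out 1 array gave 0 to 3, with 0 without control 1 or knockdown 3. The mitochondrial median, -0.02, ran from -0.012 to 0.059 when 1 array was left out. The list of cytosolic co-chaperones, which also holds the ER chaperone Serpinh1, went from 0 calls to 2 with the percentile over bright probes (Bag2 lower, Serpinh1 higher). That list went to 1 with quantile normalisation (Serpinh1), and to 1 with normexp or a filter of 6 arrays (Bag2). The ER list went from 1 call to 0 with the percentile over bright probes, quantile normalisation, no filter, the replicate block and each left-out array. The mitochondrial list went from 1 to 0 with the same settings but quantile normalisation. Dnajb11 turned from -0.17 to 0.67 with the mean of its probes and then passed as higher (limma adjusted p = 0.0499), the only ER member to pass in any alternative at 1 value per gene, while Dnajc12 was lost there. Over 29 named genes and 405 gene settings, 362 kept direction and call, counting 19 sign changes among values not called in either fit, 42 lost the call and 1 reversed. No scaling moved the median of all genes by over 0.1, and among the 29 named genes the block ended no call other than those given. Single abundant members did move with quantile normalisation. Hspd1 went from -0.35 to -0.44 and Hspa4 from -0.26 to -0.34 (limma adjusted p = 0.0693 and 0.0714). Hspa8 went from 0.12 to 0.04 and Hspa5 from -0.04 to -0.10, and none of these passed. Signal limits the dim members: 9 of the 12 untested ones were above background on no array, and Hspb7 has only a bound. The causes of the changes were not tested.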
